A study of Mus musculus with 8 samples.

Results

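The 10 genes examined here encode growth factors, growth factor receptors and secreted or membrane glycoproteins that remodel the extracellular matrix, namely *Tgfb1*, *Igf1*, *Hbegf*, *Tgfbr1*, *Tgfbr2*, *Tgfbi*, *Fn1*, *Thbs1*, *Spp1* and *Gpnmb*. They were taken by gene symbol from the 18635 genes of the expression table. The largest difference was in *Gpnmb*, which was 28.1% higher in *Phgdh* fl/fl *Cx3cr1*-Cre macrophages than in *Phgdh* fl/fl macrophages, with *Tgfbr1* also higher, by 9.02%. *Thbs1*, *Tgfbi*, *Tgfb1* and *Igf1* were lower, at 0.880 to 0.922 of the control mean. *Spp1*, *Tgfbr2*, *Fn1* and *Hbegf* did not pass the test.

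Macrophages release TGF-β1 as a latent complex that integrins or proteases must open before it binds its type II receptor, which then recruits the type I receptor and signals through Smad proteins. IGF1 and HB-EGF act on receptor tyrosine kinases of neighbouring cells, HB-EGF after it has been cut from the cell surface. Fibronectin, thrombospondin-1, osteopontin and TGFBI are bound by integrins and other surface receptors, and in tumors they are among the proteins through which macrophages shape the matrix around them.

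RNA was sequenced from bone marrow-derived macrophages (BMDMs) of C57BL/6 mice aged 6 to 8 weeks. Both groups received AE17-TCM for 24 h, which is medium taken from cultures of the mouse mesothelioma line AE17, and macrophages treated in this way are called TEMs. The *Phgdh* fl/fl *Cx3cr1*-Cre group (n = 4) carried a Cre in 1 of the *Cx3cr1* alleles and deleted *Phgdh*, which encodes the first enzyme of serine synthesis, in cells that express or have expressed *Cx3cr1*. The control group (n = 4) consisted of *Phgdh* fl/fl littermates with both *Cx3cr1* alleles, so that floxed *Phgdh*, the strain and the medium were shared by both groups. The changed *Cx3cr1* allele and the loss of *Phgdh* cannot be told apart in this design. No group without AE17-TCM was analysed here.

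Values are normalized counts, that is reads per gene divided by a size factor per library, and the libraries held between 38219563 and 47027420 reads. *Phgdh* lay at 117 ± 9.82 normalized counts (SD, n = 4) in control TEMs and at 27.1 ± 9.39 in *Cx3cr1*-Cre TEMs, a log2 fold change of -2.15. *Cx3cr1* itself lay at 1075 ± 94.2 and 660 ± 32.2. All 9 macrophage markers were detected, with summed counts of 1034094 to 1125523 in control and 1012050 to 1088395 in *Cx3cr1*-Cre TEMs, and 0 of the 9 were higher and 5 lower. Of 9 fibroblast markers 6 had a value, and their sums were 34.1 to 53.9 against 37.4 to 70.1, while 2 of 9 mesothelial or epithelial markers had sums of 31.6 to 46.7 against 32.2 to 42.7. Sums moved apart between the genotypes for the endothelial list (4 of 6 markers with a value, 2240 to 2478 against 3118 to 3366, with *Vwf* and *Kdr* higher), the platelet list (4 of 6, 4051 to 4335 against 3022 to 3158, with *Pf4* and *Ppbp* lower) and the T and B cell list (3 of 8, 203 to 259 against 141 to 171, with *Cd79b* lower). The neutrophil list (2 of 9) ran from 473 to 588 against 587 to 641, and the dendritic cell list (3 of 6) from 7.24 to 29.6 against 25.9 to 41.7. The part of these other cell types in the results below was not tested, and in RNA from a whole culture fewer cells of a type and less RNA per cell cannot be told apart.

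A gene was called changed when its adjusted p from limma, fitted to the log2 of the normalized count plus 1 over all 13629 genes with a mean of at least 10, was under 0.05. By this rule 6 of the 10 members were called, 2 of them higher and 4 lower in *Cx3cr1*-Cre TEMs, beside 41% of all genes tested. Of the genes with a mean of at least 1000 normalized counts, to which 8 of the 10 members belong, 56.9% were called, and 6 of those 8 members were. The groups did not overlap for 7 members, 4 lower and 3 higher, beside 36.7% of all genes tested and 51.3% of those with a mean of at least 1000, a class that holds all 7. The median log2 fold change was -0.05 over the members and -0.0018 over all genes, and the median absolute log2 fold change was 0.13 over the members, 0.12 over all genes and 0.09 over genes with a mean of at least 1000.

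**Figure D1:**
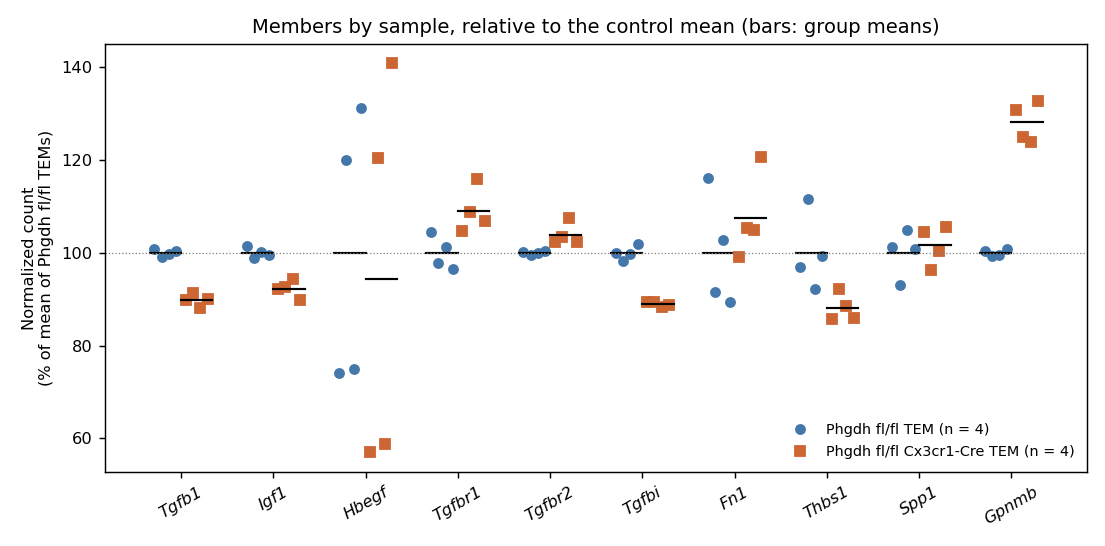
Normalized count of each of the 10 members in each of the 8 samples, as a percentage of the mean of the 4 *Phgdh* fl/fl TEM samples, with circles for *Phgdh* fl/fl, squares for *Phgdh* fl/fl *Cx3cr1*-Cre and bars for group means. The *Gpnmb* squares lie above all circles, those of *Tgfb1*, *Igf1*, *Tgfbi* and *Thbs1* lie below, and *Hbegf* spreads most within both groups.

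Set side by side per exon length, in FPKM computed from the recovered reads, the members covered a 132189-fold range in control TEMs. *Spp1* stood at 8717 ± 431 FPKM (SD, n = 4), the second highest level of all genes. *Gpnmb* followed at 1427 ± 10.8 FPKM, in place 19 of all genes by the control means. The secreted factors *Igf1* (132 ± 1.59 FPKM), *Tgfbi* (80.7 ± 1.15 FPKM) and *Tgfb1* (65.5 ± 0.489 FPKM) formed a middle range. The receptors *Tgfbr1* (22.4 ± 0.805 FPKM) and *Tgfbr2* (20.5 ± 0.0714 FPKM) came next, and *Thbs1* (9.57 ± 0.799 FPKM) was below them. *Fn1* at 0.209 ± 0.0258 FPKM and *Hbegf* at 0.0659 ± 0.0197 FPKM were the lowest, with 93 to 132 and 7 to 20 reads per library. Of the 9 pairs of neighbours in this order, *Tgfbr1* and *Tgfbr2* were the only pair whose ranges over the 8 samples overlapped, although *Tgfbr1* was the higher of the pair in each sample. The order was the same by the means of *Cx3cr1*-Cre TEMs, with *Spp1* at 8956 FPKM and *Gpnmb* at 1847 FPKM, in place 12.

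**Figure D2:**
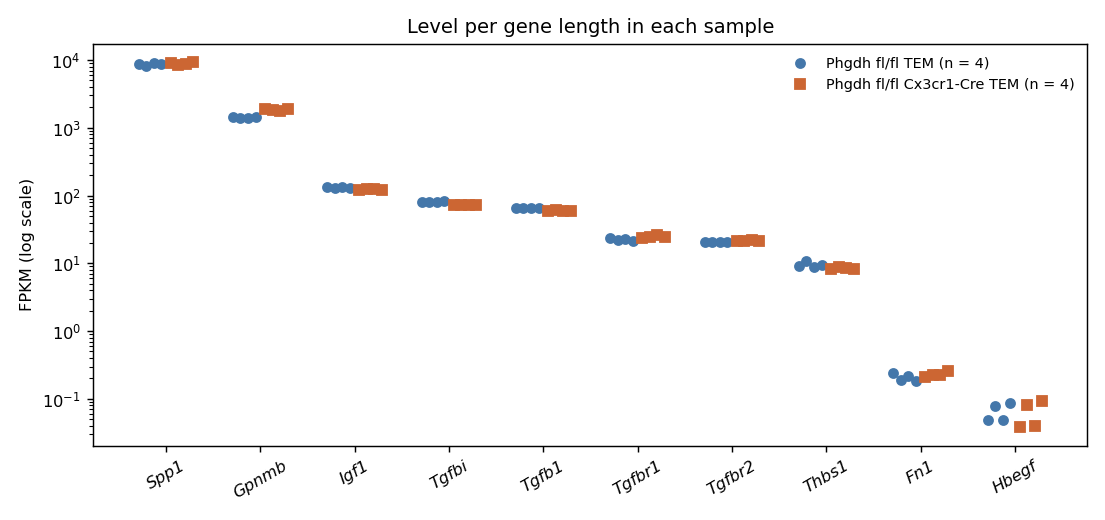
Level of each member per exon length (FPKM, log axis) in the 4 *Phgdh* fl/fl samples (circles) and the 4 *Phgdh* fl/fl *Cx3cr1*-Cre samples (squares), ordered by the control mean. The levels run from 8717 FPKM for *Spp1* to 0.0659 FPKM for *Hbegf*, and the differences between genotypes are small against this range.

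Among the growth factors, *Tgfb1* (ENSMUSG00000002603, mm10, chr7:25687002-25705077, + strand), the gene of the TGF-β1 precursor, was measured with little spread. Control replicates 1 to 4 lay at 14432, 14196, 14290 and 14363 normalized counts, and *Cx3cr1*-Cre replicates 1 to 4 at 12851, 13090, 12613 and 12895. Each *Cx3cr1*-Cre sample was below each control sample, and the gap between the groups exceeded the spread within either. The means were 14320 ± 101 and 12862 ± 196 (SD, n = 4), a log2 fold change of -0.15 (SE 0.02, limma adjusted p = 4.26e-06). Of the genes with a mean of at least 1000, 28.0% had a larger absolute log2 fold change.

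The 250 bases before the *Tgfb1* start (RefSeq, GRCm38.p6, chr7:25686752-25687001, + strand) and the bases before the *Tgfbi* start (chr13:56609336-56609522, + strand) are shown because both genes were lower, as *Igf1* and *Thbs1* also were. Capitals mark the GC box GGGCGG or its reverse complement.
Tgfb1: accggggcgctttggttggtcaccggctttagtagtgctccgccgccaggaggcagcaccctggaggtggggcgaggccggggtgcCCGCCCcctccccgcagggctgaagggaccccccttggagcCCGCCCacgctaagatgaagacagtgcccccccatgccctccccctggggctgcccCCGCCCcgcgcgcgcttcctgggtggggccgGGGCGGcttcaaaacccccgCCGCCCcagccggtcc
Tgfbi: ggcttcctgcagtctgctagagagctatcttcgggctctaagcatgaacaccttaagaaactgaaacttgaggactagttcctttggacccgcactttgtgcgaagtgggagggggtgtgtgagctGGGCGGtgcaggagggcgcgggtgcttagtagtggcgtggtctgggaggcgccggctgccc
The *Tgfbi* window was searched over 250 bases like all others and is shown up to the annotated start of the gene, 187 bases. The *Tgfb1* stretch held 5 such matches, 1 on the + strand and 4 on the other, with a GC content of 75.2%, and the *Tgfbi* stretch held 1. The GC box occurred in 32.7% of the 32851 promoter windows of 250 bases, whose median GC content was 52.4%. Among the members it was also found before *Tgfbr1*, which was higher, and it was absent from the window of *Igf1*, which was lower. Promoter windows were found for 7 of the 10 members, 9 windows in all. The motif CAGACA, to which Smad proteins are known to bind, was found before *Tgfbr1* and *Spp1* and in 17.1% of all windows, and the AP-1 motif TGACTCA, present in 4.46% of all windows, was found before none of the 7. The TATA box TATAAA, present in 12.4% of all windows, was found before *Spp1*, and the amino acid response motif TGATGNAA, present in 3.45%, before none. Both strands were searched for each motif. A match of letters is a description of these windows and says nothing about binding.

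The *Tgfb1* transcript is also the one read by the study's quantitative PCR, whose primers are shown to place that assay on the gene.
Tgfb forward: tgacgtcactggagttgtacgg
Tgfb reverse: ggttcatgtcatggatggtgc
In GENCODE M21 the forward primer matched exon 3 of *Tgfb1* at chr7:25694300-25694321 and the reverse primer exon 5 at chr7:25697155-25697175, both inside the coding sequence, for a product of 170 bases on the spliced transcript. The count above is over all exons of the gene and therefore includes this stretch, and the PCR values were not analysed here.

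*Igf1* (ENSMUSG00000020053, chr10:87858265-87937042, + strand), the gene of insulin-like growth factor 1, had the most reads of the 3 growth factors among the members. Its normalized counts were 57472, 55923, 56655 and 56378 in control replicates 1 to 4 and 52129, 52428, 53348 and 50834 in *Cx3cr1*-Cre replicates 1 to 4. The *Cx3cr1*-Cre samples were again all below the control samples. The means of 56607 ± 651 and 52185 ± 1039 gave a log2 fold change of -0.12 (SE 0.02, limma adjusted p = 0.000158), and *Igf1* fell by 7.81%. After quantile normalization the log2 fold change was -0.03 with an adjusted p of 0.259, so the call was lost on that scale. The antisense gene *Igf1os* overlaps the start of *Igf1*, at 40.3 ± 9.91 and 33.6 ± 6.21 normalized counts, and whether counting used the strand is not given in the sources used here.

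*Hbegf* (ENSMUSG00000024486), the gene of heparin-binding EGF-like growth factor, was covered by 7 to 20 reads per library. Its normalized counts were 10.2, 16.6, 10.3 and 18.1 in control replicates 1 to 4 and 7.88, 16.6, 8.13 and 19.4 in *Cx3cr1*-Cre replicates 1 to 4. Replicates 2 and 4 were the higher ones and replicates 1 and 3 the lower ones in both genotypes, and the groups overlapped throughout. The log2 fold change was -0.14 with a 95% interval of -0.86 to 0.58 (limma adjusted p = 0.788), so that a difference of the size seen for the other members was not detectable at this depth.

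The type I receptor gene *Tgfbr1* (ENSMUSG00000007613, chr4:47353222-47414931, + strand) moved opposite to its ligand. Control replicates 1 to 4 lay at 6615, 6199, 6418 and 6118 normalized counts and *Cx3cr1*-Cre replicates 1 to 4 at 6632, 6899, 7341 and 6766. The groups did not overlap, but the lowest *Cx3cr1*-Cre sample stood just above the highest control sample. The means were 6337 ± 224 and 6909 ± 308, a log2 fold change of 0.12 (SE 0.03, limma adjusted p = 0.00253). Over the alternatives the adjusted p of *Tgfbr1* ran up to 0.0486, just under the threshold.

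*Tgfbr2* (ENSMUSG00000032440, chr9:116084293-116175360, - strand), the gene of the ligand-binding type II receptor, lay at 7286, 7244, 7280 and 7314 normalized counts in control replicates 1 to 4. In *Cx3cr1*-Cre replicates 1 to 4 the values were 7454, 7531, 7824 and 7451, each above every control sample. The log2 fold change was 0.05 (95% interval 0.0068 to 0.10) with a limma adjusted p of 0.0629, which missed the threshold. The exact two-sided permutation test over the 70 ways to split the samples gave an unadjusted p = 0.0286, the smallest it allows. Groups that do not overlap always give this value, as for the other 6 such members, so it adds nothing to the non-overlap itself. When libraries were scaled to total reads the log2 fold change was 0.07 and the adjusted p 0.0207. *Tgfbr2* lies 3.86 Mb from *Cx3cr1*, the locus that carries the Cre, and 37.3% of the 75 tested genes within 5 Mb of *Cx3cr1* were called.

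The ratio of the ligand to each of its receptors within a sample was therefore lower in *Cx3cr1*-Cre TEMs. The ratio of *Tgfb1* to *Tgfbr1* normalized counts ran from 2.18 to 2.35 in control and from 1.72 to 1.94 in *Cx3cr1*-Cre TEMs, and that of *Tgfb1* to *Tgfbr2* from 1.96 to 1.98 and from 1.61 to 1.74. Neither ratio overlapped between the groups, which had to follow, since *Tgfb1* was lower and both receptors higher in every *Cx3cr1*-Cre sample. The ratio of the receptors to each other did overlap, at 0.837 to 0.908 against 0.890 to 0.938 for *Tgfbr1* over *Tgfbr2*. These ratios carry no test of their own, since they were set up with the values of the members known.

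*Tgfbi* (ENSMUSG00000035493, chr13:56609523-56639562, + strand) is the gene of a TGF-β-induced matrix protein that integrins bind. Its mean changed by -11.0% in *Cx3cr1*-Cre TEMs, beside -10.2% for *Tgfb1*, -12.0% for *Thbs1* and -7.81% for *Igf1*. Its normalized counts were 13179, 12968, 13162 and 13448 in control replicates 1 to 4 and 11789, 11800, 11637 and 11702 in *Cx3cr1*-Cre replicates 1 to 4. The 4 *Cx3cr1*-Cre samples lay close together and well below the lowest control sample. The means of 13189 ± 198 and 11732 ± 77.0 gave a log2 fold change of -0.17 (SE 0.02, limma adjusted p = 1.47e-06). The ratio of *Tgfbi* to *Tgfb1* within a sample was 0.921 ± 0.0108 in control and 0.912 ± 0.00956 in *Cx3cr1*-Cre TEMs, with overlapping ranges.

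*Thbs1* (ENSMUSG00000040152, chr2:118111876-118127133, + strand) encodes thrombospondin-1, a matricellular protein known to activate latent TGF-β and to bind CD47 and CD36. Control replicates 1 to 4 lay at 2439, 2809, 2322 and 2503 normalized counts and *Cx3cr1*-Cre replicates 1 to 4 at 2157, 2320, 2229 and 2163. Control replicate 2 was the highest of all samples, and the highest *Cx3cr1*-Cre sample lay directly under the lowest control sample. The log2 fold change was -0.18 (SE 0.04, limma adjusted p = 0.0020), and it was -0.13 without control replicate 2. Over the alternatives the adjusted p of *Thbs1* ran up to 0.0499, just under the threshold. Platelets are rich in thrombospondin-1 and TGF-β1. Of 6 platelet markers 4 had a value and 3 were tested. *Pf4* (log2 fold change -0.42) and *Ppbp* (-0.64) were lower, and the other 1 was not called. The part of platelets in the values of *Thbs1* and *Tgfb1* was not tested. The ratio of *Thbs1* to *Cd47* overlapped between the groups, at 0.162 to 0.199 and 0.179 to 0.195.

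*Fn1* (ENSMUSG00000026193, chr1:71585520-71653200, - strand), the fibronectin gene, was low for its length, with 93 to 132 reads per library. Its normalized counts were 123, 96.6, 108 and 94.4 in control replicates 1 to 4 and 105, 111, 111 and 127 in *Cx3cr1*-Cre replicates 1 to 4. The groups overlapped, and the log2 fold change of 0.11 had a 95% interval of -0.13 to 0.35 (limma adjusted p = 0.487).

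*Spp1* (ENSMUSG00000029304, chr5:104435118-104441050, + strand), the gene of osteopontin, held the third largest count of all genes. Control replicates 1 to 4 lay at 630387, 578674, 653288 and 627921 normalized counts and *Cx3cr1*-Cre replicates 1 to 4 at 650811, 598831, 625472 and 656910. Replicate 2 was the lowest in both genotypes, and the groups overlapped. The log2 fold change was 0.02 with a 95% interval of -0.05 to 0.10 (limma adjusted p = 0.632), an interval that holds no change as large as those of the 6 called members. The gene *Gm42793*, annotated on the same strand at chr5:104435121-104436372 within *Spp1*, rose from 580 ± 63.5 to 796 ± 48.6 normalized counts (log2 fold change 0.46, limma adjusted p = 5.64e-06), and reads from the shared stretch cannot be told apart.

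*Gpnmb* (ENSMUSG00000029816, chr6:49036546-49070929, + strand) encodes a transmembrane glycoprotein of lipid-laden and tumor-associated macrophages whose outer part can be shed. Its normalized counts were 404845, 400218, 400658 and 405950 in control replicates 1 to 4 and 526847, 503436, 499261 and 534619 in *Cx3cr1*-Cre replicates 1 to 4. All *Cx3cr1*-Cre samples were far above all control samples, and the spread was wider among them. The means were 402918 ± 2904 and 516041 ± 17343, a log2 fold change of 0.36 (SE 0.03, 95% interval 0.30 to 0.42, limma adjusted p = 2.24e-09). Leaving out each sample in turn gave log2 fold changes of 0.34 to 0.37. Of the genes with a mean of at least 1000, 3.90% had a larger absolute log2 fold change, and of all genes tested 13.7% had.

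As a share of all reads, *Gpnmb* took 0.923% to 0.936% in control and 1.17% to 1.25% in *Cx3cr1*-Cre TEMs, and its mean count was the seventh largest of all genes in control and the fifth largest in *Cx3cr1*-Cre TEMs. Its ratio to *Spp1* within a sample was 0.648 ± 0.0324 in control and 0.816 ± 0.0180 in *Cx3cr1*-Cre TEMs, and the groups did not overlap, at 0.613 to 0.692 against 0.798 to 0.841. Since *Spp1* was not called, this gap largely restates the difference in *Gpnmb*, and the ratio carries no test of its own. *Gpnmb* and *Spp1* together held between 2.26% and 2.78% of the reads of a library.

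The 250 bases before the RefSeq start of *Gpnmb* (GRCm38.p6, chr6:49036268-49036517, + strand) are shown as the window of the member that moved most, with no capitals since none of the motifs searched was found in it.
Gpnmb: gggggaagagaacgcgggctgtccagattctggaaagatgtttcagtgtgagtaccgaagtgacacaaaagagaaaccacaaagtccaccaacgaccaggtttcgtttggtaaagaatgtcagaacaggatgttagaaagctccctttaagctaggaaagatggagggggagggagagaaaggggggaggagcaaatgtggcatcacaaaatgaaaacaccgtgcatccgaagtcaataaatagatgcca
Its GC content was 47.2%. Neither the E-box CACGTG, present in 6.02% of all windows, nor the M-box TCATGTG, present in 3.25%, was found on either strand, which says only that these letters are not in this window. The primers that the study used for *Gpnmb* are shown with their place on the gene, and the PCR values themselves were not analysed here.
Gpnmb forward: cattcccatctcgaaggtgaaa
Gpnmb reverse: aaatggcagagtcgttgagga
They matched exon 5 at chr6:49047412-49047433 and exon 6 at chr6:49047853-49047873 of GENCODE M21, inside the coding sequence, for a product of 179 bases.

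**Figure D3:**
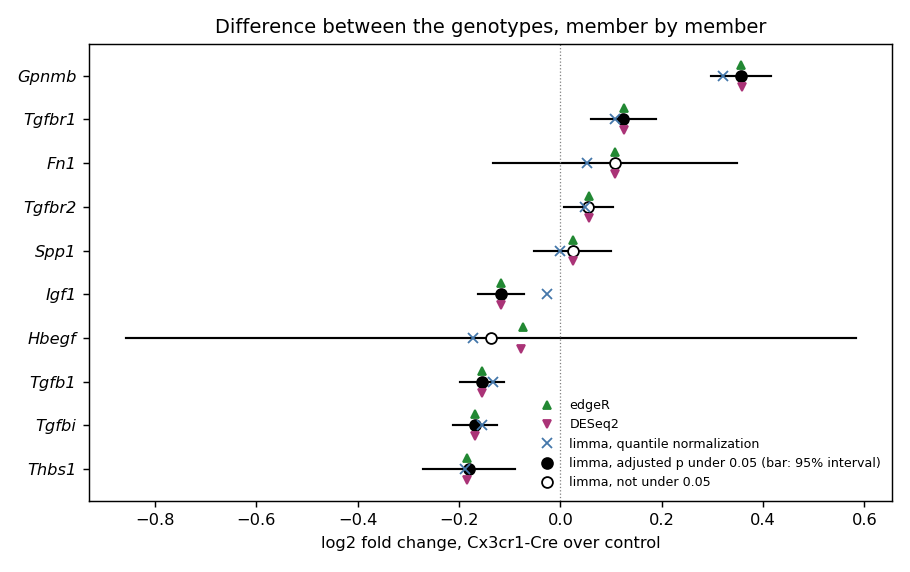
Log2 fold change of *Phgdh* fl/fl *Cx3cr1*-Cre over *Phgdh* fl/fl TEMs for the 10 members, with limma estimates as circles (filled where the adjusted p is under 0.05), 95% intervals as bars, and edgeR, DESeq2 and quantile-normalized estimates as small marks. *Gpnmb* stands apart at 0.36, *Igf1* moves from -0.12 to -0.03 after quantile normalization, and the interval of *Hbegf* spans -0.86 to 0.58.

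**Figure D4:**
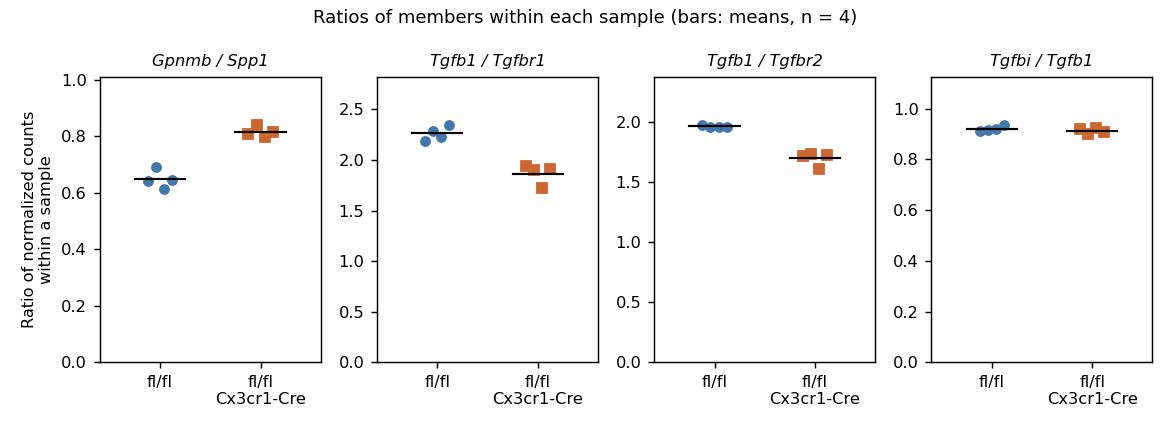
Ratio of normalized counts of 4 pairs of members within each sample (linear axes from 0, n = 4 per group, bars for means). The groups are apart for *Gpnmb* over *Spp1* (0.648 against 0.816) and for *Tgfb1* over each receptor, and they overlap for *Tgfbi* over *Tgfb1* (0.921 against 0.912). The gaps largely restate the differences of the single members and carry no test of their own.

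The genes around the members were read from 10 pathway lists of 183 distinct genes, none of them a member and some in more than 1 list, of which 127 were tested. Of these, 37 were higher and 48 lower in *Cx3cr1*-Cre TEMs and 42 were not called, with a median log2 fold change of -0.02. Higher calls made up 20.8% and lower calls 20.3% of all genes tested.

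For TGF-β1, the list of further ligands, latency proteins and activators had 4 of 10 tested genes higher and 4 lower, with a median log2 fold change of -0.24. *Itgb8*, the integrin subunit that opens latent TGF-β, rose from 19.9 to 45.3 normalized counts (log2 fold change 1.22, SE 0.27, limma adjusted p = 0.000831). *Mmp14*, a membrane-bound matrix protease, rose by a log2 fold change of 0.44. *Ltbp2*, a matrix protein of the latent TGF-β binding protein family, had a log2 fold change of -0.42. Without *Cx3cr1*-Cre replicate 2 or replicate 3, 5 of these 10 genes were called. Of 21 tested receptors, Smads and inhibitors beside *Tgfbr1* and *Tgfbr2*, 3 were higher and 6 lower, with a median of -0.0073. *Bmpr1a*, a BMP type I receptor, was higher (log2 fold change 0.37), and *Bambi*, a decoy receptor, and *Smad6*, an inhibitory Smad, were lower (-0.41 and -0.33), the last with adjusted p up to 0.071 over the alternatives.

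Of 13 tested genes known as TGF-β or BMP targets, 3 were higher and 7 lower, with a median log2 fold change of -0.08. *Id1* and *Id3*, inhibitors of basic helix-loop-helix factors that BMP and TGF-β signals induce, fell from 162 to 87.9 and from 564 to 309 normalized counts (log2 fold changes -0.88 and -0.87). Of 8 tested genes of plasminogen activation, a protease system that degrades matrix, 2 were higher and 6 lower, with a median of -0.28. *Serpinb2* (0.69) and *Serpine2* (-0.59), the genes of serine protease inhibitors, were called with few reads. The call of *Serpinb2* was lost in 8 and that of *Serpine2* in 4 of 16 alternatives.

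In the IGF axis 2 of 8 tested genes were higher and 2 lower, with a median log2 fold change of 0.12. *Igf1r*, the receptor of IGF1, fell from 181 to 145 normalized counts (log2 fold change -0.32, SE 0.10, limma adjusted p = 0.0108), and *Igfbp4*, a binding protein that holds IGF1 from its receptor, fell by 0.38 on the log2 scale. *Irs2*, an adaptor of the IGF1 and insulin receptors, rose from 261 to 396 normalized counts (log2 fold change 0.60). In the EGF family and its shedding enzymes 1 of 11 tested genes was higher and 2 lower, with a median of 0.01. *Nrg4*, a neuregulin, rose (0.81), and the proteases *Adam9* and *Adam10* fell (-0.11 and -0.07), the call of *Adam10* being lost in 7 of 17 alternatives. *Egfr*, a receptor of HB-EGF, lay at 24.1 and 21.3 normalized counts (log2 fold change -0.22, SE 0.27, limma adjusted p = 0.552). *Erbb4*, another receptor of HB-EGF, had no value in these data.

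Among the receptors of osteopontin, fibronectin and thrombospondin-1, 4 of 16 tested genes were higher and 10 lower, with a median log2 fold change of -0.10. The largest difference was in *Itgb3*, the β3 integrin subunit that pairs with αv, which rose from 317 to 1036 normalized counts (log2 fold change 1.71, SE 0.07, limma adjusted p = 4.72e-14). Its partner *Itgav*, which is counted among the TGF-β activators too, fell (-0.26). The thrombospondin-1 receptors *Cd36* (-0.45) and *Cd47* (-0.22), the osteopontin and hyaluronan receptor *Cd44* (-0.15) and the integrin subunit *Itga9* (-0.34) fell as well.

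Of 15 tested genes for other matrix proteins and their modifying enzymes, 3 were higher and 6 lower, with a median log2 fold change of 0.01. *Lox*, which crosslinks collagen and elastin, rose (0.34), and *Plod2*, a collagen lysyl hydroxylase, and *Col18a1*, the gene of the collagen that yields endostatin, fell (-0.56 and -0.32). Of 16 other tested growth factor and cytokine genes, 8 were higher and 3 lower, with a median of 0.09. *Inhba*, the gene of the activin A subunit and thus of another ligand of the TGF-β family, rose from 82.7 to 249 normalized counts (1.59), *Il1rn*, the gene of the interleukin-1 receptor antagonist, rose from 4192 to 7031 (0.74), and *Gdf3*, a further TGF-β family ligand, fell from 30.2 to 7.77 (-1.81).

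For *Gpnmb*, the list of MiT/TFE transcription factors, which are known to bind its promoter, and of genes often measured with it had 8 of 16 tested genes higher and 5 lower, with a median log2 fold change of 0.07. *Atp6v0d2*, a subunit of the vacuolar proton pump, rose from 1956 to 3081 normalized counts (0.66), *Tfec*, a factor of the MiT/TFE family, rose from 325 to 438 (0.43), and *Fnip2*, a partner of folliculin, rose by 0.40. The RNA of the more abundant factors of the family, named after their values were seen, did not rise. The part of any of these factors in the level of *Gpnmb* was not tested. *Tfe3* fell from 6678 to 6209 (-0.11, limma adjusted p = 0.00147), *Tfeb* lay at 1048 and 973 (-0.11, adjusted p = 0.0433, a call lost in 11 of 17 alternatives), and *Mitf* lay at 5705 and 5612 (-0.02, adjusted p = 0.514).

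**Figure D5:**
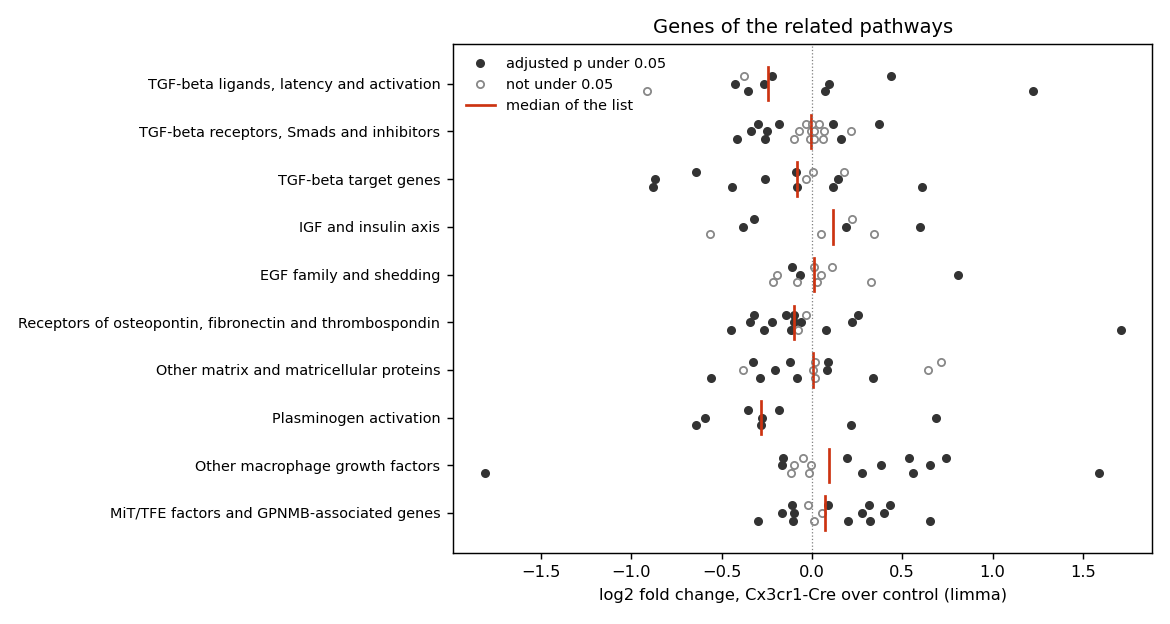
Log2 fold change (limma, *Phgdh* fl/fl *Cx3cr1*-Cre over *Phgdh* fl/fl TEMs) of each tested gene of the 10 pathway lists, filled where the adjusted p is under 0.05, with the median of each list as a vertical bar. The lists hold genes on both sides of 0, and their medians run from -0.28 for plasminogen activation to 0.12 for the IGF axis.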

How the data were processed

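RNA from 4 *Phgdh* fl/fl and 4 *Phgdh* fl/fl *Cx3cr1*-Cre TEM samples, which the submitters call biological replicates, was sequenced as single-end reads. The authors mapped reads to mm10 with TopHat2 and counted them with HTSeq 0.6. The deposited values are a signal per gene, namely reads divided by a size factor per library, although the methods name FPKM. Dividing by the value of 1 read gave whole numbers, within 0.01 reads, for 100% of 144353 values. The deposited fold changes and p-values of the authors were not used.

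Log2 values (pseudocount 1, mean of at least 10) were fitted with limma 3.58.1 (trend, two-sided, Benjamini-Hochberg adjustment over 13629 genes, R 4.3.3) and single genes with scipy 1.17.1. FPKM used GENCODE M21 exon lengths. The alternatives were no filter, a pseudocount of 0.1, a minimum mean of 50, quantile normalization, total-read scaling, no trend, a replicate block, edgeR 4.0.16 (quasi-likelihood, TMM) and DESeq2 1.42.0 on the recovered reads, and leaving out each sample in turn. The fits were tested on simulated counts in which fewer genes changed than were called here, and by larger amounts than any member. That test therefore does not cover differences as small as those of the members.

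Named are the 10 members, *Phgdh*, up to 3 called genes with the largest absolute log2 fold change per pathway list, and *Igf1r*, *Egfr*, *Erbb4*, *Cd44*, *Cd47*, *Itgav* and *Itgb3*. *Mitf*, *Tfe3* and *Tfeb* were added after their values were seen. *Cx3cr1*, overlapping genes and markers stand beside the results they touch. The members, lists and ratios were chosen with earlier results of these data known. *Hbegf* sequence is not shown, and 1 gene that this rule names is not reported here.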

Additional observations from a re-analysis of the deposited data

Results flagged for a closer look

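In 4 of 94 groups of 4 samples checked, 1 sample stood far from the other 3, and chance flags about 1 in 20 groups. None of them belonged to the 10 members. *Irs2* was high in *Phgdh* fl/fl replicate 1, at 290.1 normalized counts against 250.3 to 251.2 in the others (gap 0.979 of the range). *Gdf3* was high in *Cx3cr1*-Cre replicate 2, at 10.4 against 6.75 to 7.12 (0.9 of the range). *Tfec* was low in *Phgdh* fl/fl replicate 3, at 289.4 against 336.5 to 337.7 (0.975), and low in *Cx3cr1*-Cre replicate 2, at 420.9 against 443.2 to 444.5 (0.948).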

How the results depend on the processing

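Over 17 alternatives the number of members called was 5 after quantile normalization, 7 after scaling to total reads and 6 otherwise, leaving out each sample in turn included, beside 4930 to 5944 of all genes tested and 74 to 86 of the list genes. Of 169 values of single members under the alternatives, 164 kept their direction and their side of the threshold. The exceptions were *Igf1* after quantile normalization (log2 fold change -0.03, adjusted p 0.259), *Tgfbr2* after scaling to total reads (0.07, adjusted p 0.0207), *Hbegf* without *Cx3cr1*-Cre replicate 1 (0.05) or replicate 3 (0.04), and *Spp1* without *Phgdh* fl/fl replicate 2 (-0.01), and the cause was not tested. Over the samples left out, *Hbegf* ran from -0.35 to 0.049 and *Spp1* from -0.010 to 0.051. *Spp1* holds the same rank in each library, so quantile normalization sets its difference to 0 by construction. That value has no direction and was counted among the 164. *Hbegf* had no value with the filter at a mean of 50. Called genes among the TGF-β ligands and activators numbered 5 without *Cx3cr1*-Cre replicate 2 or 3 and 6 to 8 otherwise, and those of the EGF family 5 after quantile normalization and 3 in the fit as reported. *Phgdh* ran from -2.29 to -1.88 when samples were left out.

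With a replicate block 6 members, 5597 genes and 82 list genes were called. For replicates 1 to 4, samples of the same number correlated in their deviations at 0.0628, 0.0977, 0.126 and 0.0776. The largest correlations with other numbers were 0.135, 0.0751, 0.0751 and 0.135. These values do not settle whether the numbers pair the samples, and the fit as reported did not pair them. The 95% intervals of *Hbegf* and *Fn1* were the widest of the 10 members.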
